A study of Mus musculus with 4 samples.

Results

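The 8 genes described here encode the plasminogen activators, the receptor of one of them, and 5 serpins, the family of serine protease inhibitors and their relatives. They were taken by symbol from the deposited count table of 51826 genes, and each symbol matched 1 row. The members were Plat, Plau, Plaur, Serpine2, Serpinf1, Serpinh1, Serpinb2 and Serpinb6a. RNA was sequenced from cultured dermal papilla cells (DPCs), the mesenchymal cells at the base of the hair follicle, and dermal sheath cells (DSCs), which wrap around it. Both were grown from whisker follicles of EGFP-transgenic C57BL/6J mice aged 5 to 6 weeks in DMEM with fetal bovine serum, and the labels give their genotype as WT. The 4 groups were low-passage DPCs (passage 3), high-passage DPCs (passage 9), low-passage DSCs (passage 3) and high-passage DSCs (passage 9), with 1 library each, and the labels name no other treatment.

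Plasminogen activators are serine proteases that cut the inactive plasminogen to plasmin, which digests fibrin and other matrix proteins around the cell. Tissue plasminogen activator (tPA, from Plat) works best on fibrin and on cell surfaces, whereas urokinase (uPA, from Plau) is held at the membrane by its receptor uPAR (from Plaur). Most serpins trap their target protease in an irreversible complex, and some family members have lost this activity and act as chaperones or signalling factors. In skin and follicle, the system takes part in wound repair and in tissue remodelling.

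Library totals ranged from 34981284 to 47604059 counts, and 7 of the 8 members were among the 16734 genes with a mean of at least 10 raw counts over the 4 libraries. With 1 library per group there was no replicate check, so no test of a difference between 2 groups was possible. Folds were called at 4-fold (a log2 change of 2) after TMM scaling, which evens out differences in library size and composition, and levels are given as CPM (counts relative to the scaled library size). The deposited FPKM, which also scales for transcript length, was used where genes were compared with one another. The 95% intervals given are exact counting intervals that compare 2 libraries rather than 2 conditions. Of the 9 mesenchymal markers, Col1a1, Col1a2, Pdgfrb and Vim each had at least 34988 counts in every library. Lum had 8 and 0 counts in low- and high-passage DPCs and 0 and 109 in DSCs. With passage, 7 of the 9 were lower and 2 higher in DPCs, while 5 were higher and 4 lower in DSCs. The list summed to 18827 and 7464 CPM in low- and high-passage DPCs and to 27648 and 24644 CPM in DSCs. That sum moved with passage in DPCs, and its part in the DPC changes below was not tested. The markers did not follow the cell type labels as lists. The 10 dermal papilla markers summed to 272 and 186 CPM in DPCs and to more in DSCs, 461 and 413 CPM; Sox2 was higher in DPCs (1677 and 1491 counts against 269 and 178), Ncam1 was higher in DSCs (11755 and 15584 counts against 3642 and 1673), and Alpl had at most 23 counts in any library. All 6 dermal sheath markers were higher in DPCs at passage 3, by a median log2 difference of 0.58, whereas 5 of the 6 were lower in DPCs at passage 9, with a median of -1.57. Of 10 keratinocyte markers 5 had 0 counts in all libraries, Krt5, Krt14 and Cdh1 among them, but the list summed to 2.17 and 8.25 CPM in DPCs and to 7.17 and 55.7 CPM in DSCs. Most of the last sum was Dsp, with 10 counts at passage 3 and 184 at passage 9 in DPCs, against 84 and 2307 in DSCs, and the part of these markers in the passage changes was not tested. Passage and any difference in when the libraries were made cannot be told apart.

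Promoters are shown for Serpinh1 and Plaur, which were lower at passage 9 in both cell types, and for Serpine2, whose level separated DPCs from DSCs. Serpinb6a was also lower in both cell types, and its promoters are not shown. Each runs 5′ to 3′ in the sense of the gene over the 250 bases before a RefSeq transcription start on GRCm38.p6, and capitals mark GC boxes (GGGCGG or its reverse complement CCGCCC) and AP-1 sites (TGANTCA, which reads alike on both strands).
Serpinh1: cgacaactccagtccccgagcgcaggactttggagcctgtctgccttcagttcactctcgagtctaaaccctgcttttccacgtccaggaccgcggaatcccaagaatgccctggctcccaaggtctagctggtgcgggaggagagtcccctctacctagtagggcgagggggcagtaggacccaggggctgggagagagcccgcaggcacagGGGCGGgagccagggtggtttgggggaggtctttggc
Plaur: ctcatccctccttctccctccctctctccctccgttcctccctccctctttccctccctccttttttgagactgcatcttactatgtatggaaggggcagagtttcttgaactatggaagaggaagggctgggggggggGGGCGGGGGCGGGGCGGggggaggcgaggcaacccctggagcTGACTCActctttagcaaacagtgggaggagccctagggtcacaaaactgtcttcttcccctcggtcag
Serpine2: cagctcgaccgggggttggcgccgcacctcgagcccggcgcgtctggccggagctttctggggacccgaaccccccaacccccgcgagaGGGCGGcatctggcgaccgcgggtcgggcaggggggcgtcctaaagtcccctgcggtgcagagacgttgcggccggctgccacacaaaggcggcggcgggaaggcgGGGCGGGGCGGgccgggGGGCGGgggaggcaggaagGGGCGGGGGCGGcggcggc
These lie at chr7:99353240-99353489 on the minus strand, chr7:24462233-24462482 on the plus strand and chr1:79858666-79858915 on the minus strand. The Serpine2 window held 6 GC boxes, 1 pair of which shares a base, that of Plaur held 3, of which the last 2 share a base, and that of Serpinh1 held 1. A GC box was found in 32.7% of 32851 RefSeq promoter windows of this length. The window of Plaur alone among these 3 held an AP-1 site, 69 to 63 bases before the start, and 6.75% of all windows held one. No match to the heat shock element (GAANNTTC, in 6.69% of all windows) or to the TATA box (TATAAA, in 12.4%) was present in the 3 windows. Both RefSeq starts of Serpinb2 had a TATA box and an AP-1 site in their windows. RefSeq entries matched 6 of the 8 members, and Plat and Plau were not matched.

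Plat was the member with the widest range. Its product tPA cuts plasminogen. Plat (ENSMUSG00000031538, chromosome 8, 22757727 to 22782844, a position that, like those of the other members, fits GRCm38) had 91.1 CPM at passage 3 and 1875 at passage 9 in DPCs, against 49.5 and 198 in DSCs. High-passage DPCs stood above the other 3 libraries, and in both cell types the passage 9 library was above the passage 3 library. In DPCs Plat rose 20.6-fold with passage (log2 change 4.36, 95% interval 4.31 to 4.41), and 0.837% of all tested genes had a larger increase. In DSCs it was 3.99-fold higher (2.0, interval 1.93 to 2.07), just under the 4-fold threshold. It passed 4-fold with DESeq2 size factors, with only genes of at least 100 mean counts, or by FPKM with a pseudocount of 0.1 (2.04). The difference between these log2 changes was 2.37, a value with no test, and 5.4% of tested genes had a larger difference in either direction. DPCs exceeded DSCs by 0.88 at passage 3 (interval 0.80 to 0.96) and by 3.25 at passage 9 (3.21 to 3.28), on the log2 scale. By deposited FPKM Plat ranked 2119th of all genes in low-passage DPCs and 48th in high-passage DPCs. The corresponding ranks in DSCs were 4056 and 865. Endothelial cells are a known source of tPA, and the 6 endothelial markers summed to 2.42, 0.111, 5.70 and 1.08 CPM in DPCs at passages 3 and 9 and in DSCs at passages 3 and 9. Of the 6, 5 had 0 counts in high-passage DPCs, and the part of these markers in the Plat changes was not tested.

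Plau moved the other way from Plat in DPCs. It encodes uPA, the second activator. Plau (ENSMUSG00000021822, chromosome 14, 20836662 to 20843388) had 44.8 CPM at passage 3 and 5.66 at passage 9 in DPCs, against 17.3 and 14.1 in DSCs. DPCs held both the highest and the lowest library, with the DSC libraries between them. In DPCs Plau fell 7.85-fold with passage (-2.97, interval -3.20 to -2.77), and 1.67% of tested genes had a larger decrease. In DSCs the log2 change was -0.29 (interval -0.45 to -0.13), or 1.23-fold lower. The order of the cell types turned with passage, from 2.59-fold higher in DPCs at passage 3 (1.37, interval 1.24 to 1.51) to 2.48-fold lower at passage 9 (-1.31, interval -1.55 to -1.09). The log2 changes in DPCs and DSCs differed by -2.68, which 4.09% of tested genes exceeded in size.

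Plaur encodes the receptor that concentrates uPA at the cell surface. Plaur (ENSMUSG00000046223, chromosome 7, 24462484 to 24475968) had 36.5 CPM at passage 3 and 24.4 at passage 9 in DPCs, against 45.6 and 17.6 in DSCs. Both passage 9 libraries were below both passage 3 libraries. The log2 change with passage was -0.58 in DPCs (interval -0.70 to -0.46) and -1.37 in DSCs (-1.50 to -1.25), so the decrease was larger in DSCs, opposite to the order for Plau. DPCs against DSCs differed by -0.32 at passage 3 (interval -0.43 to -0.22) and by 0.47 at passage 9 (0.33 to 0.61). Plau and Plaur are also made by macrophages, and 9 markers of macrophages and leukocytes were counted (Itgam, the tenth, had 2 rows of that name and was left out). All 9 had counts in every library and summed to 139 and 87.2 CPM in low- and high-passage DPCs and to 192 and 111 CPM in DSCs. Most of each sum was Lyz2, with 92.3 and 54.7 CPM in DPCs and 131 and 78.3 CPM in DSCs. The median log2 change of the 9 with passage was -1.56 in DPCs and -1.50 in DSCs. In each cell type 8 of the 9 were lower and 1, Cd14, was higher (1.88 and 0.77). The part of these markers in the lower Plau and Plaur levels was not tested. In such bulk samples fewer cells of a type and less RNA per cell cannot be told apart.

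**Figure D1:**
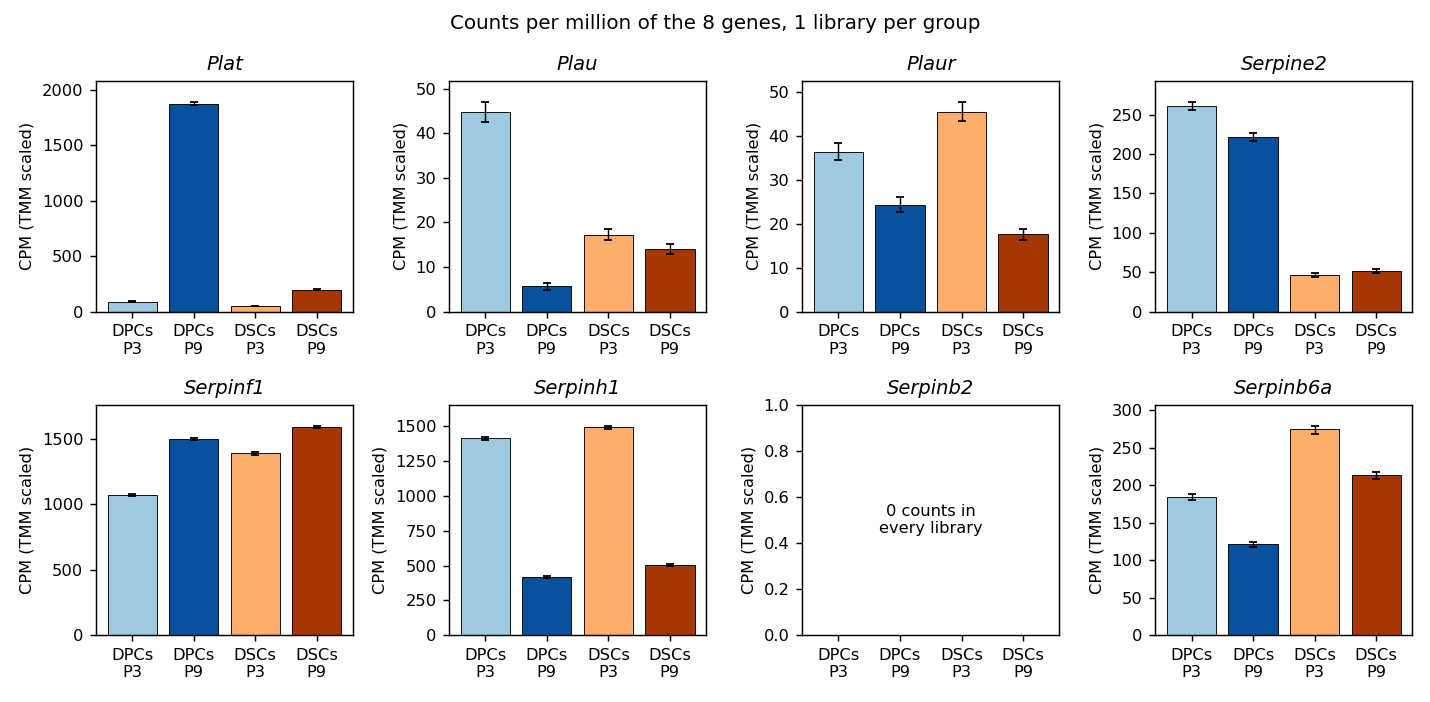
Bars give TMM-scaled CPM (linear axes from 0, 1 panel per gene with its own scale) in DPCs and DSCs at passage 3 (P3) and passage 9 (P9), 1 library each, with 95% Poisson counting intervals. Plat reached 1875 CPM in high-passage DPCs, Serpine2 was higher in both DPC libraries, Serpinh1 was lower in both passage 9 libraries and Serpinb2 had 0 counts.

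Among the serpins, Serpine2 separated the cell types and not the passages. Its product, protease nexin-1, inhibits thrombin, uPA and tPA. Serpine2 (ENSMUSG00000026249, chromosome 1, 79794197 to 79861180) had 261 CPM at passage 3 and 222 at passage 9 in DPCs, against 46.7 and 51.5 in DSCs. Both DPC libraries were above both DSC libraries. DPCs were 5.59-fold higher at passage 3 (2.48, interval 2.41 to 2.56) and 4.30-fold higher at passage 9 (2.11, interval 2.04 to 2.17). The log2 changes with passage were small and of opposite sign, with -0.23 in DPCs (interval -0.28 to -0.19) and 0.14 in DSCs (0.05 to 0.23). Glial cells are a known source of this protein, and the 7 Schwann cell markers summed to 14.6 and 6.35 CPM in low- and high-passage DPCs and to 36.3 and 10.7 CPM in DSCs. Their part in the Serpine2 difference was not tested.

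Serpinf1 had the highest FPKM of the 8 members in all 4 libraries, and it moved little by counts. It encodes pigment epithelium-derived factor (PEDF), a secreted serpin without inhibitory activity that restrains vessel growth. Serpinf1 (ENSMUSG00000000753, chromosome 11, 75409769 to 75422701) had 1073 CPM at passage 3 and 1498 at passage 9 in DPCs, against 1389 and 1588 in DSCs. By counts all libraries lay within 0.56 log2 units of one another. The passage 9 library was higher in both cell types, by 0.48 in DPCs (interval 0.46 to 0.50) and 0.19 in DSCs (0.18 to 0.21), and 30.1% and 35.5% of tested genes had larger increases. Its FPKM was 1003, 1396, 873 and 1333 in DPCs at passages 3 and 9 and in DSCs at passages 3 and 9, which ranked it between 26th and 48th of all genes. The order of the cell types depended on the unit, since DPCs were lower than DSCs at passage 3 by counts (-0.37) and higher by FPKM with a pseudocount of 0.1 (0.20), and at passage 9 they differed by -0.08 and 0.07. By that FPKM measure the change with passage was 0.48 in DPCs and 0.61 in DSCs. Which cell type had the larger change thus also depended on the unit.

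Serpinh1 was the only member at least 2-fold lower in both cell types, and by a like amount. It encodes HSP47, a chaperone of the endoplasmic reticulum that binds procollagen and does not inhibit proteases. Serpinh1 (ENSMUSG00000070436, chromosome 7, 99345376 to 99353239) had 1412 CPM at passage 3 and 421 at passage 9 in DPCs, against 1489 and 506 in DSCs. The passage 9 libraries were both far below the passage 3 libraries, and the cell types lay close together at each passage. It was 3.35-fold lower with passage in DPCs (-1.75, interval -1.77 to -1.72) and 2.94-fold lower in DSCs (-1.56, interval -1.58 to -1.53), both short of 4-fold. In DSCs 2.37% of tested genes had a larger decrease, and in DPCs 5.82%.

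Serpinb6a encodes an intracellular serpin of clade B. Serpinb6a (ENSMUSG00000060147, chromosome 13, 33917918 to 34002794) had 184 CPM at passage 3 and 121 at passage 9 in DPCs, against 274 and 213 in DSCs. DSCs were above DPCs at both passages, by 0.57 and 0.82 log2 units, and the changes with passage were -0.61 in DPCs (interval -0.66 to -0.55) and -0.36 in DSCs (-0.40 to -0.32). Of its exonic bases 29.3% lie opposite exons of Nqo2, Ripk1 and 1110046J04Rik, and because the use of strand in counting was not stated, reads of these genes cannot be told apart from its own there. No other member shared exonic bases with a gene on the opposite strand.

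Serpinb2 (ENSMUSG00000062345, chromosome 1, 107511423 to 107535478) encodes plasminogen activator inhibitor-2, which inhibits uPA. It had 0 counts and an FPKM of 0 in all 4 libraries. A count of 0 allows up to 3 counts, or 0.0815 and 0.0836 CPM in DPCs (passages 3 and 9) and 0.0791 and 0.0658 CPM in DSCs, as a limit from counting error alone. At this depth no change of Serpinb2 between passages could be detected.

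Counted over the 7 tested members, 1 (Plat) rose 4-fold with passage in DPCs, where 5.58% of tested genes did, and 1 (Plau) fell 4-fold, where 4.36% did. In DSCs 0 members passed 4-fold in either direction, against 3.82% of tested genes. At 2-fold, Plat was higher in both cell types (4.86% of tested genes) and Serpinh1 was lower in both (3.54%). Between the cell types, 1 member (Serpine2) was 4-fold higher in DPCs at passage 3, against 1.52% of tested genes, and 2 (Plat and Serpine2) at passage 9, against 2.5%. At 2-fold in a single comparison, 3 members passed in DSCs (14.8% of tested genes) and 2 between the cell types at passage 3 (13.3%). With 7 genes, these counts describe the members and give no measure of the set.

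**Figure D2:**
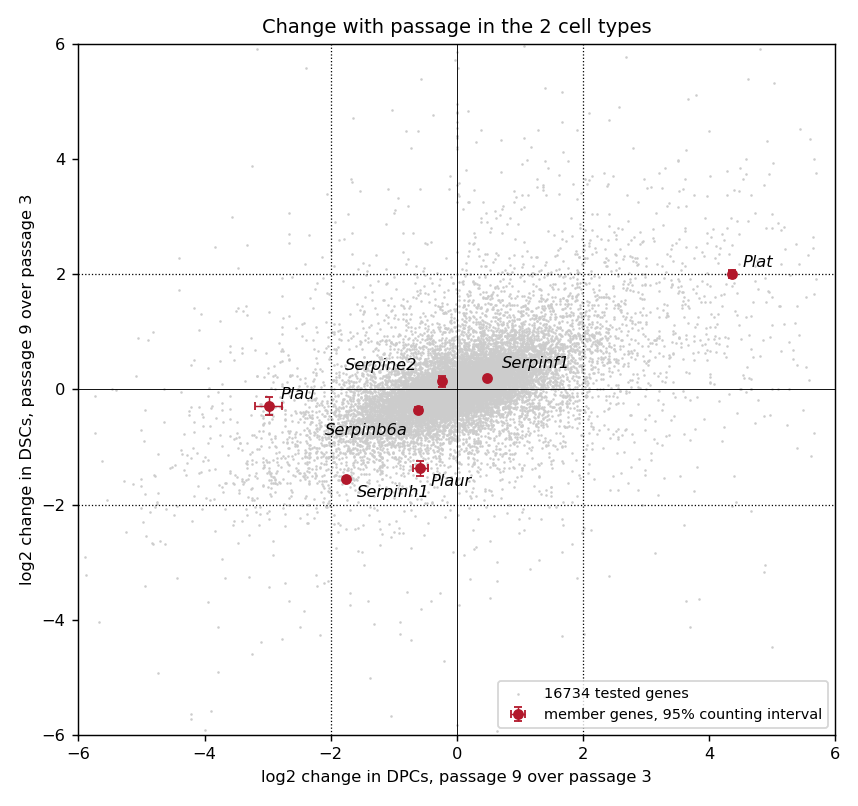
Each point is a gene, with its log2 change from passage 3 to passage 9 in DPCs (horizontal axis) and in DSCs (vertical axis); red points are the 7 tested members with 95% counting intervals, grey points are all 16734 tested genes (65 lie outside the axes), and dotted lines mark 4-fold. Plat lies at 4.36 and 2.0, Serpinh1 near the diagonal at -1.75 and -1.56, and Plau at -2.97 in DPCs and -0.29 in DSCs.

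A model with additive terms for passage and cell type was fitted across all tested genes. It takes a single passage change for both cell types, so it cannot ask whether that change was shared. Its 1 residual degree of freedom measures how far DPCs and DSCs differ in response, not the spread of cultures. The edgeR quasi-likelihood test called 0 genes for passage at a Benjamini-Hochberg adjusted p under 0.05 (2822 genes at an unadjusted p under 0.05), and the DESeq2 Wald test called 955 genes, or 5.71%. The fitted passage term of Plat was 3.18 (edgeR adjusted p = 0.192, DESeq2 adjusted p = 7.8e-08), and that of Serpinh1 was -1.65 (edgeR adjusted p = 0.19, DESeq2 adjusted p = 2.1e-06). The Plat term lies between its unlike changes of 4.36 in DPCs and 2.0 in DSCs. Each moved in 1 direction in 2 of 2 cell types, and over all alternatives the adjusted p ranged from 7.8e-08 to 0.322 for Plat and from 2.1e-06 to 0.319 for Serpinh1. The other 5 tested members had DESeq2 adjusted p values of 0.0812 (Plau) or more for passage. For cell type edgeR again called 0 genes (1381 unadjusted), while DESeq2 called 496 genes (2.96%), among them Serpine2 with a difference of 2.30 (edgeR adjusted p = 0.115, DESeq2 adjusted p = 3.09e-11) and Plat with 2.07 (edgeR adjusted p = 0.474, DESeq2 adjusted p = 0.00224). The value for Plat lies between its differences of 0.88 at passage 3 and 3.25 at passage 9. Serpine2 was higher in DPCs in 2 of 2 passages, with an adjusted p of 3.09e-11 to 0.188 over all alternatives, and so was Plat, with 0.00224 to 0.722.

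Because length-scaled values allow genes to be set side by side, the activators and Serpine2, the member serpin that inhibits both of them and had counts here, were compared by FPKM within each library. In low-passage DPCs the FPKM was 33.3 for Plat, 17.6 for Plau and 109.8 for Serpine2. In high-passage DPCs it was 678 for Plat, 2.21 for Plau and 92.7 for Serpine2. Plat thus went from below Serpine2 to above it in DPCs. In low-passage DSCs the FPKM was 16.1 for Plat, 6.40 for Plau and 18.8 for Serpine2. In high-passage DSCs it was 66.4, 5.12 and 20.1 for the same genes, so that Plat passed Serpine2 there as well, from a level close to it. A share formed after these values were seen puts Plat at 65.4% of the summed FPKM of Plat and Plau at passage 3 and 99.7% at passage 9 in DPCs, and at 71.5% and 92.8% in DSCs. These are RNA levels, and protein amount and activity were not measured.

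**Figure D3:**
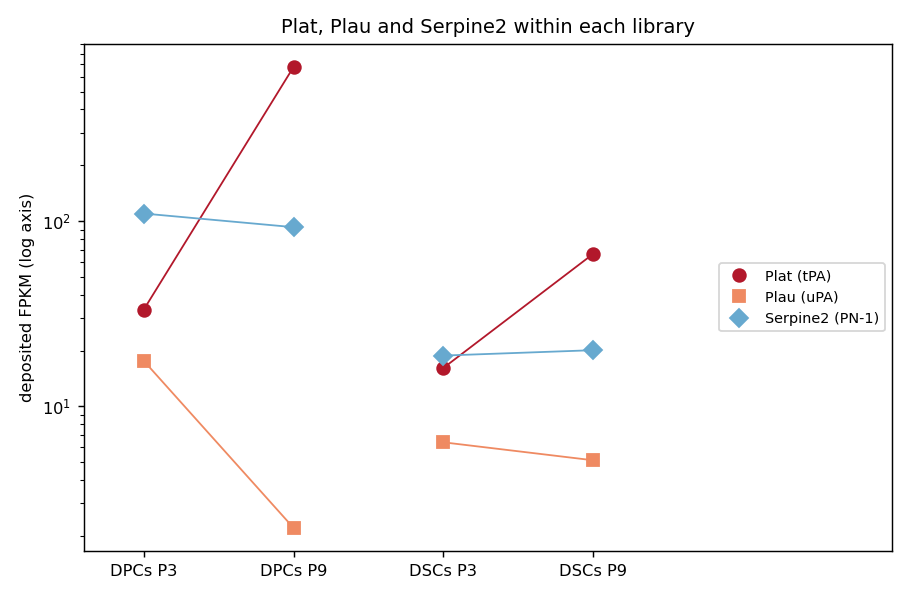
Deposited FPKM (log axis) of the activator genes Plat and Plau and the inhibitor gene Serpine2 in each of the 4 libraries (1 per group, no error available); lines join passage 3 to passage 9 within a cell type. Plat went from 33.3 to 678 FPKM in DPCs and from 16.1 to 66.4 in DSCs, passing Serpine2 in both, while Plau went from 17.6 to 2.21 in DPCs.

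The wider plasminogen system was examined as a list of 20 genes, which includes Plat, Plau, Plaur, Serpine2 and Serpinb2. Of these, 12 were tested and 3 had 0 counts in every library, among them Plg, which encodes plasminogen itself and is made mainly in the liver. In DPCs 2 genes were 4-fold higher at passage 9 and 3 were 4-fold lower, Plat and Plau included, where 5.58% and 4.36% of tested genes were. The median log2 change of the list was -0.44 against 0.03 over all tested genes. In DSCs 0 genes of the list passed 4-fold, against 3.82% of tested genes, and the median was -0.33 against 0.00. Lrp1, a receptor that clears complexes of activators and serpins, had 272 FPKM in low-passage and 451 in high-passage DPCs, and on the log2 CPM scale it was 0.81 higher with passage in DPCs and 0.54 higher in DSCs. Eno1, a glycolytic enzyme that also binds plasminogen at the cell surface, had changes of -1.51 and -0.37, and 26% of its sequence windows are shared with Eno1b and pseudogenes. Of the other genes past 4-fold in DPCs, Thbd and S100a10 were chosen after their values were seen. Thbd, which encodes the thrombin receptor thrombomodulin, rose 10.2-fold (3.34, interval 3.27 to 3.42), and its change in DSCs was 1.32. S100a10 and Anxa2 together form a receptor that binds tPA and plasminogen. S100a10 fell 5.95-fold (-2.57) and Anxa2 fell 4.62-fold (-2.21) in DPCs, with changes of -1.12 and -0.67 in DSCs.

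uPAR acts through vitronectin and integrins, and 8 of 10 such partners were tested. In DPCs 0 were 4-fold higher and 1 was 4-fold lower, Itga5 (the fibronectin receptor subunit, -2.08, named after its value was seen), and in DSCs 0 passed 4-fold. Of all tested genes 5.58% were 4-fold higher and 4.36% 4-fold lower in DPCs, and 3.82% passed 4-fold in DSCs. The median log2 change of the partners was 0.48 in DPCs and 0.42 in DSCs, against 0.03 and 0.00 over all tested genes. Itgb1, the shared integrin subunit, had changes of 0.17 and 0.45, and Itgb5 had 1.25 and 0.46.

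Of 12 genes whose products plasmin cuts or activates, 8 were tested. Their median log2 change was 0.23 in DPCs and 1.00 in DSCs, against 0.03 and 0.00 over all tested genes. Mmp3, which encodes stromelysin-1, rose in both cell types, by 5.44 and 4.52 log2 units. Hgf, the hepatocyte growth factor gene, rose by 3.16 and 3.06, on 6, 67, 25 and 267 counts in DPCs at passages 3 and 9 and in DSCs at passages 3 and 9. These 2 were the 4-fold increases in each cell type. Of all tested genes 5.58% rose 4-fold in DPCs, and 3.82% passed 4-fold in either direction in DSCs. Mmp9, which encodes gelatinase B and was named after its value was seen, was the 4-fold decrease in DPCs (-4.27, interval -6.70 to -3.40), where 4.36% of tested genes fell 4-fold. Fn1, the fibronectin gene, was 3.95-fold lower in DPCs (-1.98) and had a change of -0.19 in DSCs. Ltbp1, which holds latent TGF-beta in the matrix, had changes of 1.07 and 1.14, and Tgfb1 had -0.35 and -0.51.

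Serpinh1 works with the enzymes that fold and modify procollagen, so its changes were set beside 15 other genes of that group, all of them tested. None passed 4-fold in either cell type, where 5.58% of tested genes were higher and 4.36% lower in DPCs and 3.82% passed in DSCs. Their median log2 changes were 0.26 in DPCs and 0.25 in DSCs, opposite in sign to the -1.75 and -1.56 of Serpinh1. Over all tested genes the medians were 0.03 and 0.00. P4hb, the prolyl hydroxylase subunit and disulfide isomerase, had changes of -0.12 and 0.11. Fkbp10, a prolyl isomerase, had -0.89 and -0.33, and Ppib, the isomerase cyclophilin B, had -0.59 and -0.02. Of the exonic bases of Ppib 25% lie opposite Snx22, whose reads cannot be told apart there. PEDF binds several receptors, and of the 5 tested 0 passed 4-fold with passage in either cell type, with medians of 0.71 in DPCs and 0.10 in DSCs. Plxdc2 had changes of 0.91 and 0.75 and Lrp6 had 0.71 and 0.48, while Rpsa, the laminin receptor gene, had -1.37 and -0.51, with 28.8% of its sequence windows shared with pseudogenes.

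Beyond the members, 62 further serpin rows were examined, of which 8 were tested and 32 had 0 counts in every library. In DPCs 2 were 4-fold higher and 3 were 4-fold lower at passage 9, against 5.58% and 4.36% of tested genes. In DSCs 0 passed 4-fold, against 3.82% of tested genes. Median log2 changes were -0.94 in DPCs and 0.43 in DSCs, against 0.03 and 0.00 over all tested genes. Among the DPC increases, that of Serpina3n, named after its value was seen, was measured against 0 counts, and with such genes at the bound that 3 counts allow, 1 was 4-fold higher and 3 were 4-fold lower, with the same median of -0.94. Serpini1, which encodes neuroserpin, an inhibitor of tPA, rose in DPCs (2.39) from 40 to 212 counts and had a change of 0.48 in DSCs. Serping1, the C1 inhibitor gene, had changes of 1.31 and -0.18. Clade B, singled out after the values were seen, contributed 5 tested genes besides Serpinb6a. By scaled counts all 5 were lower with passage in DPCs and higher in DSCs, Serpinb8 in DSCs by counts alone, as were 14.1% of all tested genes. For 4 of them the counting intervals lay below 0 in DPCs and above 0 in DSCs, as for 5.81% of tested genes (3 of the 5 when counts were halved to allow for both mates of a read pair having been counted). Serpinb8 had changes of -0.84 and 0.11, and by FPKM, at 1.42 and 0.833 in DSCs, it was lower there too. Serpinb9, an inhibitor of granzyme B, had -1.05 and 0.30. Serpinb9b fell in DPCs (-2.54) from 308 to 50 counts and had a change of 0.37 in DSCs, from 436 to 679 counts. Serpinb6a, with -0.61 and -0.36, was lower in both cell types. Among all 12 tested serpins, members included, 6 had intervals on opposite sides of 0 in either order, against 11.6% of tested genes.

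**Figure D4:**
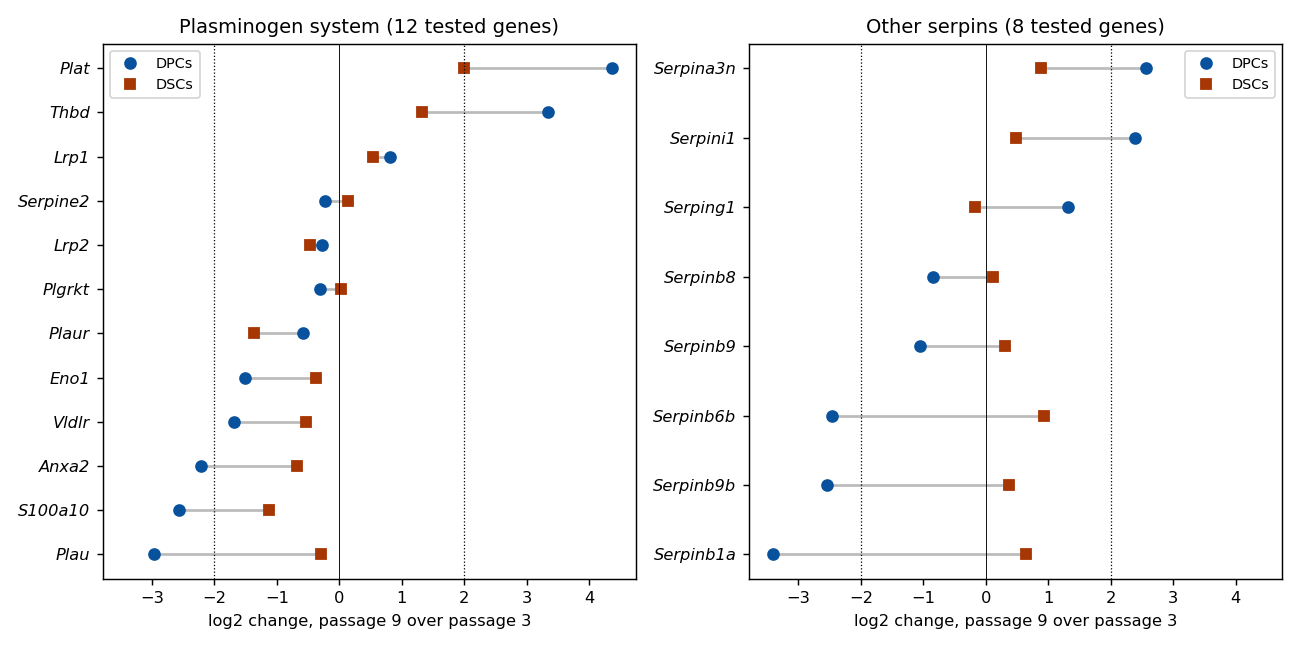
Log2 change from passage 3 to passage 9 (horizontal axis) in DPCs (circles) and DSCs (squares) for the 12 tested genes of the plasminogen system (left) and the 8 tested other serpins (right), from 1 library per group, with grey lines joining the cell types and dotted lines at 4-fold. Plat (4.36 and 2.0) and Plau (-2.97 and -0.29) lie at the ends of the left panel, and the 5 clade B genes on the right lie below 0 in DPCs and above 0 in DSCs by counts (Serpinb8 in DSCs was lower by FPKM); the Serpina3n and Serpinb1a points, named after their values were seen, rest on a DPC library with 0 counts.

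Genes whose pattern across the 4 libraries was nearest to a member were sought among 12191 genes with a mean of at least 100 counts, by the root mean square distance between centred log2 CPM profiles. Nearest to Plat was Akr1c18, a steroid dehydrogenase gene, at 0.301 log2 units, followed by Fgf1, a fibroblast growth factor gene, at 0.317. Akr1c18 had 0.734, 9.25, 0.316 and 1.14 CPM, and Fgf1 had 0.679, 11.9, 0.316 and 2.24 CPM, in DPCs at passages 3 and 9 and in DSCs at passages 3 and 9, far below Plat itself. Nearest to Serpine2 were Mfap3 (0.061) and the chemokine gene Ccl7 (0.155). Nearest to Plau were Gm17669 (0.191) and Rpl35a-ps6 (0.211). Over 4 libraries such a likeness is a description only.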

How the data were processed

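RNA was measured by poly-A selected, paired-end sequencing of 4 libraries. The authors deposited raw read counts and FPKM per gene, and the FPKM values are the authors' own scaling of fragments for transcript length and depth. The submitters' processing notes list Bowtie 0.12.2 and the builds mm8 and mm9, whereas the deposited positions of 7 of 8 members are those of GENCODE M21 on GRCm38; the annotation, counting tool and use of strand were not given in the sources used here.

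Counts were scaled by TMM in edgeR 4.0.16 (R 4.3.3, limma 3.58.1), and log2 changes were taken from CPM with a prior count of 2, over genes with a mean of at least 10 raw counts. A change was called at 4-fold. Exact 95% Clopper-Pearson intervals of a gene's reads in 2 libraries cover counting error only, since PCR reads are not independent molecules. An additive model was tested by edgeR's quasi-likelihood test and by DESeq2 1.42.0, with Benjamini-Hochberg adjustment, after the steps were tested on simulated data. FPKM was used to compare levels between genes. Alternatives were other scalings, prior counts, filters, FPKM and halved counts. Named genes were the 8 members, list genes at 4-fold in both cell types or with the highest mean FPKM (up to 3), other serpins with a mean of at least 100 counts (up to 8), the 2 nearest patterns of members with a range of at least 2 log2 units, and any gene said to be chosen after its values were seen. The members and lists were chosen with earlier results of these data known. 1 gene of the lists is not reported here. Melanocyte markers (6 genes, with Dct, Tyrp1, Tyr and Mlana at 0) summed to 11.2 to 28.3 CPM and sheath markers to 3538 to 9761 CPM.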

Additional observations from a re-analysis of the deposited data

Results flagged for a closer look

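The passage changes of 6 of 12 tested serpin genes pointed opposite ways in DPCs and DSCs, with the counting intervals of the 2 cell types on opposite sides of 0, as for 11.6% of all tested genes. With halved counts 5 of the 12 did, without Serpinb6b, against 8.47% of tested genes. Serpinb6b and Serpinb1a are named here after their values were seen. With 1 library per group the difference was not tested for any of them. For Serpine2 the change in DPCs minus that in DSCs was -0.38 (-0.23 against 0.14), and 60% of tested genes had a larger difference in size. The difference was -1.35 for Serpinb9 and -2.92 for Serpinb9b, and 1.49 for Serping1, the C1 inhibitor gene, which was the one higher with passage in DPCs. For Serpinb6b it was -3.39 on 31, 4, 17 and 41 counts in DPCs at passages 3 and 9 and in DSCs at passages 3 and 9. For Serpinb1a the fitted difference was -4.04, but high-passage DPCs had 0 counts against 18 in low-passage DPCs. A floor of 3 counts in high-passage DPCs puts the gene 5.85-fold lower there (-2.55), without the counting error of the 18 counts. With that value in place of the fitted change, the difference was -3.19. The exact counting interval of the DPC change, on the counts as given, ends at -2.10, a smaller decrease. If both mates were counted, that interval is too narrow. The floor is then 6 counts and the decrease 2.93-fold, short of 4-fold.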

How the results depend on the processing

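Replicate libraries could not be paired because each group had 1 library and the labels carry no replicate numbers, and for the same reason no library could be left out. Of 350 values for single members recomputed under the alternatives, 10 changed sign and 3 changed their 4-fold call. The 3 calls were Plat in DSCs, so that the members called there went from 0 to 1 with DESeq2 size factors, with a minimum mean of 100 counts and by FPKM with a pseudocount of 0.1. At a threshold of 2-fold, 3 members were called in DSCs and 2 between the cell types at passage 3. The sign changes included Serpinf1 between the cell types, which moved from -0.37 to 0.20 at passage 3 by FPKM. Counts over all genes moved more. From 1663 genes called with passage in DPCs, 640 in DSCs, 719 between cell types at passage 3 and 1074 at passage 9, no filter gave 2622, 1254, 1319 and 1805, a minimum mean of 100 gave 758, 210, 301 and 458, and FPKM with a pseudocount of 1 gave 354, 72, 96 and 211. A prior count of 10 gave 339, 400 and 712 for the last 3, FPKM with a pseudocount of 0.1 gave 350 in DSCs and 392 at passage 3, and halved counts gave 415 in DSCs. The additive model called 0 genes for passage with edgeR and 955 with DESeq2. For cell type it called 0 with edgeR, 13 with a minimum mean of 100, 16 with halved counts and 496 with DESeq2. The stricter filters test fewer genes, and the cause of the other shifts was not tested. Counts of 2 outnumbered counts of 3 (1339 against 583 genes in low-passage DPCs), so if both mates were counted, a count of 0 allows up to 6 counts (0.167 CPM in high-passage DPCs).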
